A study of Homo sapiens with 8 samples.

Results

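The genes described here are 38 genes of the amino acid stress and unfolded protein stress responses, of which 26 belong to the programme of the transcription factor ATF4 and 12 to the endoplasmic reticulum (ER) branch. They were taken by gene symbol, older aliases included. A probe counted as measured if, for some line, the pair of arrays both gave it a detection p-value under 0.05. By this rule 38 of the 42 probes for these genes were measured, out of 13130 measured probes among 22184 on the array. They cover 36 of the 38 genes, 24 of 26 in the ATF4 programme and 12 of 12 in the ER branch. The cystine transporter gene SLC7A11 and the lipoprotein receptor gene VLDLR were not detected on any array, and neither were the second probes of ATF3 and PSAT1.

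RNA was profiled on 8 Illumina bead arrays, 2 per line, in the TRAIL-resistant subclones TR3, TR2 and TR1 and in the parental Jurkat line they derive from, labelled WT. Jurkat is an established human T cell leukaemia line, and TRAIL is a secreted ligand of the tumour necrosis factor family that kills cells through death receptors. Each subclone was selected in 1000 ng/mL TRAIL over 12 weeks, the WT cells were not selected, and the labels call the pair of samples of each line biological duplicates and list no treatment at harvest. Each resistant line is a single subclone and no unselected subclone was profiled, so resistance, subcloning and time in culture cannot be told apart, nor can fewer expressing cells and less RNA per cell.

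Between 12408 and 13437 probes were detected per array, and duplicate arrays correlated at 0.9941 to 0.9967. The correlation of an array with all others averaged 0.9914 to 0.9942. The WT duplicates, at 0.9941, correlated least of any line. All 10 of 10 T cell markers were detected on all 8 arrays. Among markers of other cell types, CD79A and CD79B of B cells were also detected on all 8 arrays, MS4A1 was detected on 0, and of the myeloid, epithelial and fibroblast markers 0 of 4, 0 of 4 and 0 of 3 were detected on all 8. On some arrays COL1A1 (6 of 8), FCGR3A, KRT18 and CDH1 (3 each), LYZ (2), EPCAM and DCN (1 each) were detected, and their part in the results was not tested. Arrays are named by line and by the letter A or B in the authors' table of unprocessed intensities. The authors' processed table names them by replicate number instead, and letters were not matched to numbers.

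Cells that run short of amino acids or accumulate unfolded protein in the ER phosphorylate the translation factor eIF2, through the kinases GCN2 and PERK. General translation then falls while the ATF4 messenger RNA is translated more, and ATF4 turns on genes for amino acid synthesis, amino acid uptake and tRNA charging together with the transcription factors DDIT3 and ATF3. Unfolded protein also activates the sensors IRE1 and ATF6, and IRE1 splices the XBP1 messenger RNA so that it encodes an active factor. ATF6 and XBP1 raise ER chaperones and the machinery that clears misfolded protein. Because ATF4 is controlled largely at translation and XBP1 by splicing, an RNA level of either gene does not report its activity.

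Each branch has known promoter elements, and matches to them are shown here for members whose levels are described further on. Promoter windows of 300 bases, 250 before and 50 after an annotated start, were available from RefSeq (GRCh38.p14) for 34 of the 38 genes. They were searched on both strands for the C/EBP-ATF composite element, spelled TGATGCAA or TGATGAAA, and for the ER stress element, spelled CCAAT and CCACG with 9 bases of any kind between them (long form) or ATTGG and CCACG with 1 base between them (short form). No match overlapped another. A C/EBP-ATF element stood in the window of 6 of 22 ATF4 programme genes (CEBPG, CHAC1, AARS1, SLC7A1, ASNS and GARS1) and of 1 of 12 ER genes (HERPUD1), against 1.96% of all 35116 windows. An ER stress element stood in 7 of 12 ER genes (XBP1, HSPA5, HSP90B1, CALR, CRELD2, HERPUD1 and SDF2L1) and 0 of 22 ATF4 programme genes, against 0.131% of all windows. The member counts are of genes with a match in any of their windows, whereas these shares are of windows. Of all 27305 genes, TGATGCAA stood in 1.08% and TGATGAAA in 1.37%. The long ER stress form stood in 0.0916% and the short form in 0.0696%. The genes were listed for these same responses, so the shares are a description. Whether members hold more matches than other genes was not tested. A match describes the letters in the window and is not evidence of binding.

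The C/EBP-ATF matches of 3 ATF4 targets are printed 5′ to 3′ on the strand of the gene, 40 bases each, with the match in capitals. CHAC1 at chr15:40953246-40953285 (plus strand) and AARS1 at chr16:70289670-70289709 (minus strand) carry the element in reverse, and ASNS at chr7:97872453-97872492 (minus strand) carries it forward.
CHAC1: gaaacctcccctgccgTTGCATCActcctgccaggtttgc
AARS1: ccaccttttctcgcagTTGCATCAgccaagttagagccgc
ASNS: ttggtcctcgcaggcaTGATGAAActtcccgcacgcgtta
The long form of the ER stress element is shown for XBP1 at chr22:28800592-28800631 (minus strand), HSPA5 at chr9:125241380-125241419 (minus strand), the second match of HSP90B1 at chr12:103930311-103930350 (plus strand), CALR at chr19:12938374-12938413 (plus strand) and CRELD2 at chr22:49918544-49918583 (plus strand). The match reads forward in XBP1 and HSPA5 and in reverse in the other 3, and the capitals mark it.
XBP1: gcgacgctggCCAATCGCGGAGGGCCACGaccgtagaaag
HSPA5: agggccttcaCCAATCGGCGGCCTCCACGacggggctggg
HSP90B1: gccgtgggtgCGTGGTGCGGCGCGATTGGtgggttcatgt
CALR: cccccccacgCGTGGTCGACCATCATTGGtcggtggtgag
CRELD2: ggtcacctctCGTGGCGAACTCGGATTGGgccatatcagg
The short form is shown in capitals for HERPUD1 at chr16:56932011-56932050 (plus strand) and, in reverse, for SDF2L1 at chr22:21642100-21642139 (plus strand).
HERPUD1: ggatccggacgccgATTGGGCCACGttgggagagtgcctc
SDF2L1: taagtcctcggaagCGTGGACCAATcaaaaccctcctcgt

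**Figure D1:**
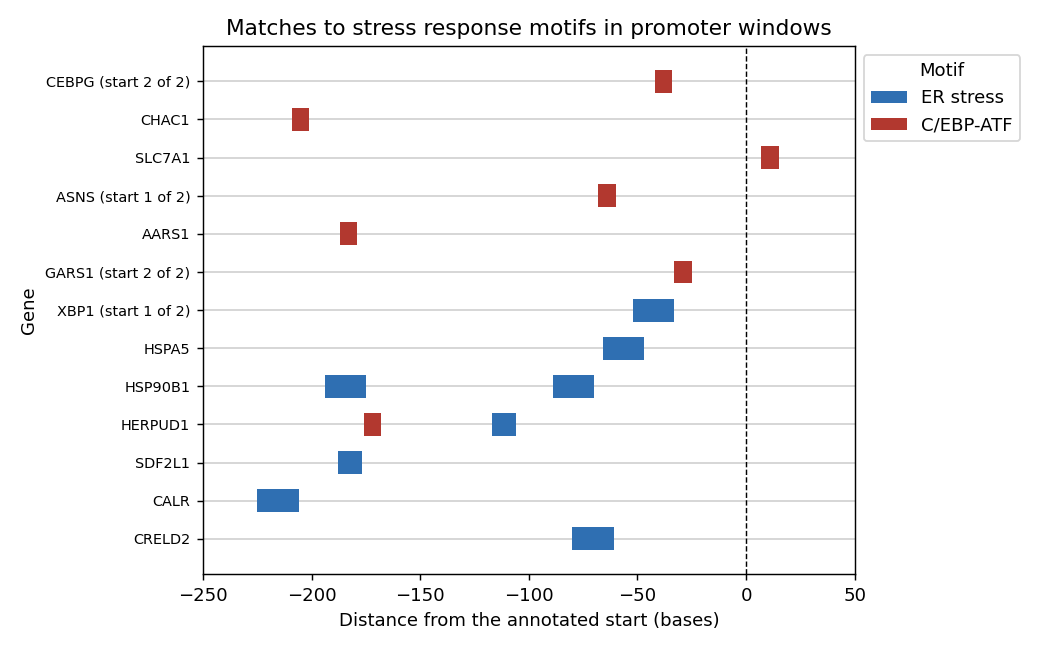
Positions of motif matches in the promoter windows of the 13 genes that hold one, as distance in bases from the annotated start (dashed line); red boxes are C/EBP-ATF elements and blue boxes are ER stress elements, and "start 1 of 2" names the window where a gene has 2. The ER stress elements lie before the start in all 7 genes that hold one, and HERPUD1 holds both kinds.

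The first comparison asks whether TRAIL-resistant subclones express either programme at another level than the parental line. In limma's fit without a replicate block, 0 of 38 probes were called in TR3 against WT, 1 of 38 in TR2 and 0 of 38 in TR1 (adjusted p under 0.05), beside 0.297%, 0.632% and 2.25% of all measured probes. At an unadjusted p under 0.05 the counts were 4, 4 and 3 of 38, or 10.5%, 10.5% and 7.89%, beside 10.1%, 11.7% and 16.2% of all probes. For the mean of the 3 clones against WT the count was 0 of 38, beside 0.396% of all probes, and 2 of 38 (5.26%) at an unadjusted p under 0.05, beside 11.3%. A second limma fit used the authors' processed values and took the replicate number as a block, because the numbers pair the samples. It called 1 of 38 in TR3, 4 of 38 in TR2, 4 of 38 in TR1 and 1 of 38 for the mean of the clones, beside 2.25%, 3.88%, 8.77% and 3% of all probes. The blocked values are given wherever they change a call.

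The medians stayed near 0 in both branches. Over the 24 measured ATF4 programme genes the median log2 difference from WT was 0 in TR3, 0.08 in TR2 and 0.03 in TR1. Over the 12 ER genes it was -0.03 in TR3, -0.01 in TR2 and -0.01 in TR1, beside 0, 0 and 0.01 over all 10681 measured genes. These comparisons share the WT arrays.

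**Figure D2:**
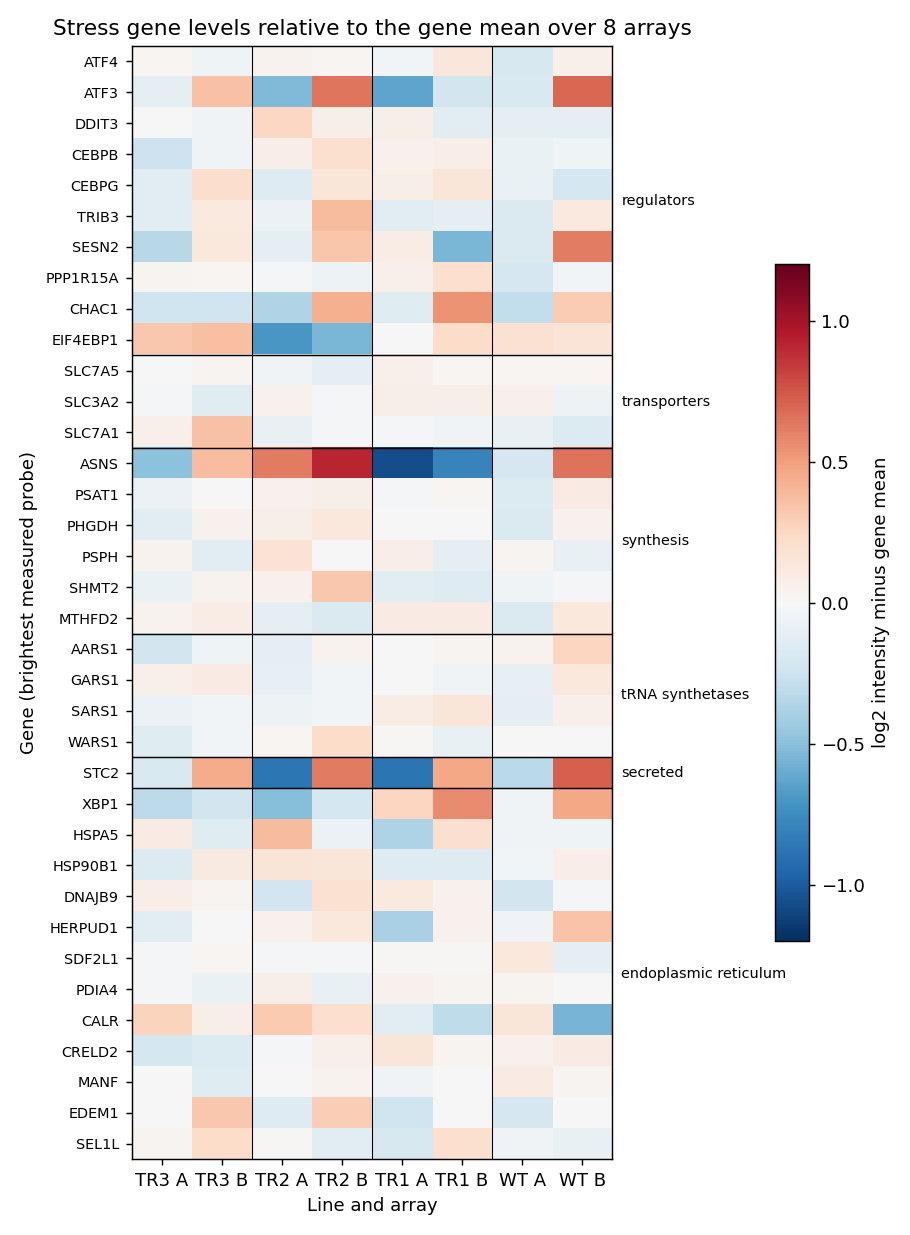
Log2 intensity of each measured gene's brightest probe minus its mean over the 8 arrays (colour), by array (columns, TR3, TR2, TR1 and WT with arrays A and B) and by role (rows). ASNS, EIF4EBP1 and XBP1 differ in colour between lines, STC2 and ATF3 differ between arrays A and B of each line, and most other rows are pale.

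ATF4 itself, the factor at the head of the programme, had log2 intensities of 13.07 and 13 in TR3, 13.09 and 13.07 in TR2, 13.02 and 13.19 in TR1, and 12.86 and 13.11 in WT. Among the clone arrays only TR1 array B lay outside the range of the WT pair. The differences from WT were 0.05, 0.1 and 0.12 (SE 0.12 each) in TR3, TR2 and TR1, with adjusted p from 0.678 to 0.94. The second measured ATF4 probe was dim, at 5.67 to 6.3 in the clones and 5.9 and 5.92 in WT, and was not called in these comparisons.

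DDIT3, also known as CHOP, is the factor that links prolonged ER stress to cell death and to transcription of the TRAIL receptor TNFRSF10B. It stood at 8.45 and 8.4 in TR3, 8.69 and 8.51 in TR2, 8.51 and 8.32 in TR1, and 8.33 and 8.33 in WT. TR2 array A was the highest, and the TR2 difference of 0.26 ± 0.11 (SE) from WT did not pass the test (adjusted p = 0.408). CEBPB and CEBPG, the leucine zipper partners of ATF4, differed from WT by -0.08 to 0.2 and by 0.15 to 0.26 and were not called. PPP1R15A, the phosphatase subunit that removes phosphate from eIF2, differed by 0.14, 0.08 and 0.25 in TR3, TR2 and TR1 and was not called either.

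ATF3, a stress-induced repressor and activator downstream of ATF4, stood at 7.6 and 8.07 in TR3, 7.19 and 8.36 in TR2, 7.09 and 7.5 in TR1, and 7.54 and 8.41 in WT. Both TR1 arrays lay below both WT arrays, while the pairs of the other 2 clones overlapped WT. The TR1 difference was -0.68 ± 0.37 (adjusted p = 0.408), and with the replicate block it was -0.57 ± 0.12 and was called (adjusted p = 0.00426). With the block ATF3 was also called higher in TR3 than in TR1 (0.44 ± 0.12, adjusted p = 0.0264) and in TR2 than in TR1 (0.41 ± 0.12, adjusted p = 0.0289). Without the block these values moved with single arrays. The TR1 difference from WT was -1.11 without WT array A and -0.24 without WT array B. The TR3 difference from TR1 was 0.54, and it was 0.33 without TR1 array A and 0.3 without TR3 array B. The TR2 difference from TR1 was 0.48, and it was 0.28 without TR1 array A, 1.07 without TR2 array A and -0.1, with the sign turned, without TR2 array B.

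EIF4EBP1, the repressor that holds the cap-binding protein eIF4E when mTOR is off and that ATF4 can induce, was the only stress gene called against WT without the block. It had log2 intensities of 5.4 and 5.44 in TR3, 4.38 and 4.53 in TR2, 5.07 and 5.3 in TR1, and 5.26 and 5.23 in WT. It was detected on both arrays of the other lines and on 0 arrays of TR2, so its TR2 level is only a bound. After the background correction used here, with its offset of 16, it was at least 1.38-fold lower in TR2 than in WT (log2 difference of the measured means -0.79 ± 0.12, adjusted p = 0.0165) and at least 1.33-fold lower in TR2 than in TR1 (-0.73 ± 0.12, adjusted p = 0.00614). On the same scale it was at least 1.57-fold higher in TR3 than in TR2 (0.97 ± 0.12, adjusted p = 0.00403). On the authors' values with the block the same 3 log2 differences were -0.4, -0.37 and 0.49, all called but smaller than these bounds, so the bounds hold for the corrected scale alone.
The intensities are close to background, and the call against WT depended on their treatment. It was lost without background correction (-0.4, adjusted p = 0.0613), with an offset of 50 (-0.36, adjusted p = 0.091), and without any one of the TR2 or WT arrays (adjusted p 0.0723 to 0.152). The call of TR2 against TR1 was lost without TR1 array B (0.0577) or TR2 array A (0.0512), and that of TR3 against TR2 without TR3 array B (0.0502).

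The other regulators were TRIB3, a pseudokinase that feeds back on ATF4, SESN2, a leucine sensor that restrains mTORC1, and CHAC1, an enzyme that degrades glutathione. TRIB3 differed from WT by 0.02, 0.18 and -0.1 in TR3, TR2 and TR1. SESN2, detected on 6 arrays, differed by -0.32, -0.11 and -0.45, and CHAC1, detected on 7, by -0.25, 0.03 and 0.19. None of these passed the test in either fit.

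Among amino acid transporters, SLC7A5 and SLC3A2 are the light and heavy chains of the large neutral amino acid exchanger, and SLC7A1 carries cationic amino acids. SLC7A5 differed from WT by -0.01, -0.1 and 0.02 in TR3, TR2 and TR1. SLC7A1 was at 11.42 and 11.71 in TR3, 11.27 and 11.34 in TR2, 11.35 and 11.32 in TR1, and 11.27 and 11.2 in WT. Both TR3 arrays exceeded the WT arrays, by 0.33 ± 0.12, without a call (adjusted p = 0.414, and 0.0781 with the block).

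The SLC3A2 probes disagreed. The brighter probe stood at 11.08 and 10.96 in TR3, 11.16 and 11.08 in TR2, 11.18 and 11.18 in TR1, and 11.17 and 11.05 in WT, with no call in either fit. The second probe stood at 9.04 and 8.98 in TR3, 9.31 and 8.95 in TR2, 9.37 and 9.53 in TR1, and 8.75 and 8.94 in WT. On that probe every clone array was above both WT arrays, and the TR1 pair was highest. Its TR1 difference was 0.6 ± 0.14 (adjusted p = 0.0605), and with the block it was 0.56 ± 0.1 and was called (adjusted p = 0.00168). It was called without the block as well when background correction was omitted (0.0303) or the offset was 50 (0.0344). The authors' processed values gave the same difference and adjusted p as omitting the correction (0.56 and 0.0303), so these settings are not separate checks. A trended robust prior (0.0172) also gave the call. Cyclic loess (0.0668), no filter on dim probes (0.122), probes detected on all 8 arrays (0.0665), array weights (0.097) and only the 4 arrays compared (0.0927) did not. Leaving out 1 array gave differences of 0.51 to 0.7. The second probe was further called with the block for the mean of the clones against WT (0.33 ± 0.09, adjusted p = 0.0438) and as lower in TR3 than in TR1 (-0.41 ± 0.1, adjusted p = 0.021). Which transcript forms each probe reads was not analysed here.

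ASNS, which makes asparagine from aspartate and glutamine, varied most widely between lines among the enzymes of amino acid synthesis. Its log2 intensities were 8.61 and 9.47 in TR3, 9.72 and 10.01 in TR2, 8.03 and 8.3 in TR1, and 8.9 and 9.75 in WT. The TR1 pair lay below every other array and the TR2 pair overlapped no other clone, whereas WT overlapped both TR3 and TR2. ASNS was higher in TR2 than in TR1 by 1.7 ± 0.31 (adjusted p = 0.0118), and by 1.57 ± 0.12 with the block (adjusted p = 1.8e-08). Against WT the TR1 difference was -1.16 ± 0.31 (adjusted p = 0.0937), and with the block it was -1.06 ± 0.12 and was called (adjusted p = 6.78e-06). The TR2 difference from WT was 0.54 ± 0.31 (adjusted p = 0.54) and was called with the block at 0.51 ± 0.12 (adjusted p = 0.0208). TR3 fell between the other clones, 0.8 ± 0.12 above TR1 (adjusted p = 0.000225) and -0.77 ± 0.12 from TR2 (adjusted p = 0.000554), both with the block, and was called in neither pair without it (0.218 and 0.365).
In the fit without the block several of these values moved when 1 array was left out. ASNS was also higher in replicate 2 than in replicate 1, by 0.53 ± 0.08, and the part of that difference in these shifts was not tested. The TR1 difference from WT was -0.74 without WT array B, and the TR2 difference from WT was 0.11 without WT array A and 0.96 without WT array B. TR3 differed from TR1 by 0.44 without TR3 array B, and from TR2 by -0.39 without TR3 array A and -1.26 without TR3 array B.
The call of TR2 against TR1 without the block was lost without TR1 array A (adjusted p = 0.087) or TR2 array B (0.102), with no filter on dim probes (0.0632) and with a trended robust prior (0.117).

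The serine and folate enzymes showed smaller differences. SHMT2, the mitochondrial enzyme that splits serine to glycine, stood at 12.36 and 12.48 in TR3, 12.49 and 12.76 in TR2, 12.31 and 12.28 in TR1, and 12.39 and 12.42 in WT. Both TR2 arrays were above all others. The difference of TR2 from TR1 was 0.33 ± 0.12 (adjusted p = 0.174) and was called with the block at 0.33 ± 0.09 (adjusted p = 0.0203). Without the block and without TR2 array B it was 0.2. PHGDH, PSAT1 and PSPH, the 3 enzymes that make serine from a glycolytic intermediate, and MTHFD2, a mitochondrial folate dehydrogenase, were called in no comparison of lines in either fit. Their log2 differences from WT ran from -0.12 (MTHFD2) to 0.16 (PHGDH) in TR2, the clone with the highest ASNS, and from 0.01 (PSPH) to 0.12 (MTHFD2) in TR1, the clone with the lowest.

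The tRNA synthetase genes AARS1, GARS1, SARS1 and WARS1, which charge tRNAs with alanine, glycine, serine and tryptophan, were called in no comparison of lines in either fit. AARS1 was the farthest from WT, at 11.93 and 12.1 in TR3 against 12.19 and 12.41 in WT, a difference of -0.28 ± 0.12 (adjusted p = 0.484, and 0.0924 with the block). STC2, a secreted glycoprotein induced by ER and nutrient stress, differed from WT by -0.06, -0.31 and -0.4 (SE 0.54 each) in TR3, TR2 and TR1, without a call. Its spread within each line was wide and is taken up with the replicate numbers.

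In the ER branch XBP1 was the gene that separated the lines. It stood at 8.88 and 8.97 in TR3, 8.68 and 8.98 in TR2, 9.45 and 9.76 in TR1, and 9.15 and 9.65 in WT. All TR3 and TR2 arrays were below all TR1 and WT arrays. XBP1 was lower in TR2 than in TR1, at -0.78 ± 0.18 without the block (adjusted p = 0.0395) and -0.73 ± 0.09 with it (adjusted p = 1.61e-05). TR3 differed from TR1 by -0.68 ± 0.18 (adjusted p = 0.113) and was called with the block at -0.64 ± 0.09 (adjusted p = 0.000137). Against WT the difference was -0.48 ± 0.18 in TR3 and -0.57 ± 0.18 in TR2, not called (adjusted p = 0.438 and 0.255). With the block these were -0.44 ± 0.09 and -0.53 ± 0.09, and both were called (adjusted p = 0.0143 and 0.00175). Without the block and without WT array B they were -0.23 and -0.32.
The call of TR2 against TR1 was lost without any one TR1, TR2 or TR3 array (adjusted p 0.0626 to 0.221) and with no filter on dim probes (0.108). Whether the probe reads spliced, unspliced or both forms of XBP1 was not analysed here.

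HSPA5, also called BiP, is the ER chaperone that holds the stress sensors inactive. It stood at 8.74 and 8.49 in TR3, 9.02 and 8.57 in TR2, 8.27 and 8.83 in TR1, and 8.6 and 8.59 in WT. The lines overlapped, and the differences from WT were 0.02, 0.21 and -0.05 (SE 0.2 each) in TR3, TR2 and TR1. HSP90B1, the ER member of the HSP90 family, stood at 12.06 and 12.33 in TR3, 12.38 and 12.37 in TR2, 12.07 and 12.07 in TR1, and 12.19 and 12.3 in WT. Both TR2 arrays were above the rest, and TR2 exceeded TR1 by 0.31 ± 0.12 (adjusted p = 0.194), which was called with the block (0.31 ± 0.09, adjusted p = 0.027).

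CALR, a calcium-binding chaperone of glycoprotein folding, stood at 12.33 and 12.14 in TR3, 12.38 and 12.27 in TR2, 11.93 and 11.76 in TR1, and 12.21 and 11.51 in WT. The TR3 and TR2 pairs were above the TR1 pair, and the WT pair spanned most of the range. No difference between lines was called without the block. With it TR2 exceeded WT by 0.46 ± 0.11 (adjusted p = 0.0225) and TR1 by 0.48 ± 0.11 (adjusted p = 0.00686), and TR3 exceeded TR1 by 0.39 ± 0.11 (adjusted p = 0.0361). Without the block the TR2 difference from WT was 0.47, and it was 0.81 without WT array A and 0.12 without WT array B. HERPUD1, part of the complex that removes misfolded protein from the ER, was called lower in TR1 than in WT only with the block (-0.3 ± 0.09, adjusted p = 0.0486, against -0.32 ± 0.17 and 0.379 without it). Its difference without the block was -0.1 without TR1 array A, -0.54 without TR1 array B, -0.51 without WT array A and -0.13 without WT array B.
DNAJB9 and SDF2L1 are cochaperones of HSPA5, PDIA4 is a disulphide isomerase, MANF and CRELD2 are secreted stress-induced ER proteins, and EDEM1 and SEL1L serve the degradation of misfolded glycoproteins. None of these 7 was called between lines in either fit, and their log2 differences from WT ran from -0.26 for CRELD2 to 0.26 for EDEM1, both in TR3.

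Set against each other, TR2 and TR1 were the pair of clones with the most stress genes called. TR3 against TR2 gave 1 of 38 probes (2.63%, beside 0.784% of all probes), TR3 against TR1 gave 0 of 38 in limma's fit, beside 1.54% of all probes (4 of 38, or 10.5%, at an unadjusted p under 0.05, beside 14.7% of all probes), and TR2 against TR1 gave 3 of 38 (7.89%, beside 4.69%). The moderated F test among the 3 clones called 2 of 38 (5.26%, beside 3.71%), EIF4EBP1 (adjusted p = 0.00285) and ASNS (0.033). With the block the same counts were 2, 5, 7 and 7 of 38, or 5.26%, 13.2%, 18.4% and 18.4%, beside 3.84%, 7.4%, 11.3% and 12.8% of all probes. Whether the members differ from other genes in this was not tested.
Some of these counts were smaller when 1 array was left out. Without any one TR2 or TR1 array the count for TR2 against TR1 was 1 and that of the F test was 1, and without TR3 array B the count for TR3 against TR2 was 0. The ASNS call in the F test was lost without any of those 4 arrays (adjusted p 0.0867 to 0.172). In the same pair of clones ASNS was higher in TR2 while EIF4EBP1 and XBP1 were lower, so the called genes did not share a direction.

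**Figure D3:**
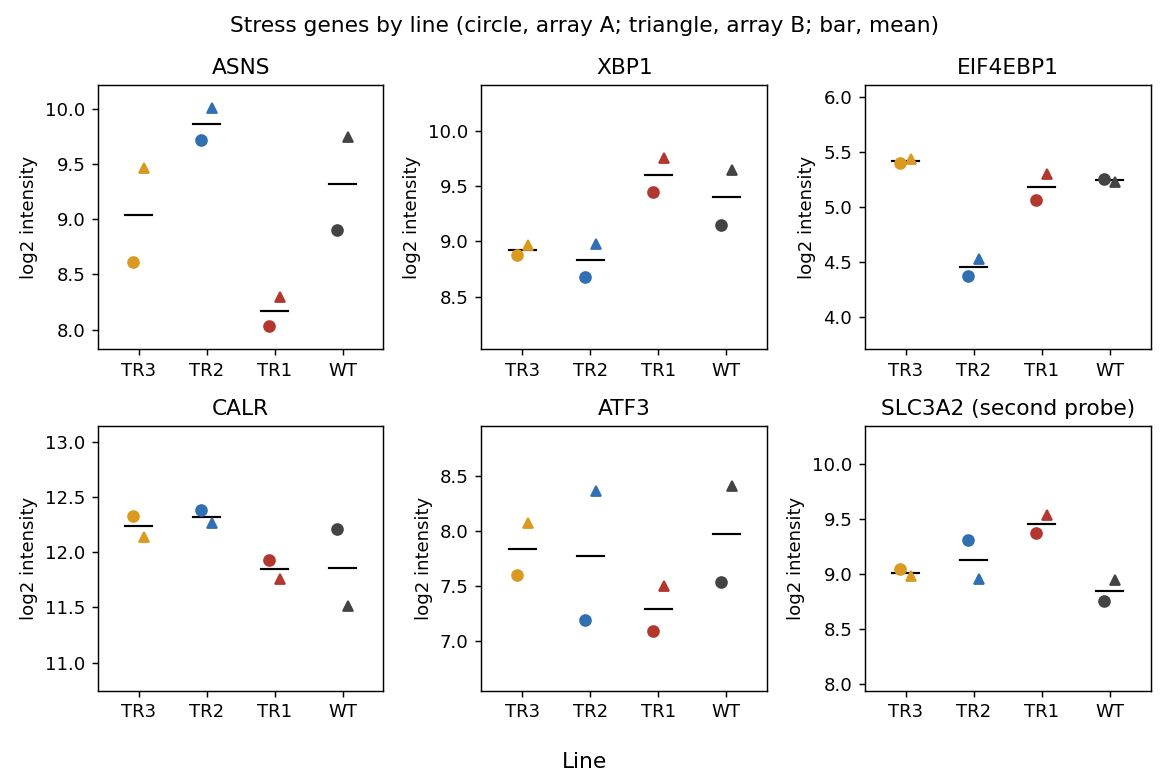
Log2 intensity of 6 probes on each array by line (circles, array A; triangles, array B; horizontal bars, mean of the 2 arrays), on an axis of equal span in each panel. ASNS is lowest in TR1 and highest in TR2, XBP1 is lower in TR3 and TR2 than in TR1 and WT, and EIF4EBP1 is lowest in TR2, where it was not detected.

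The labels also number the duplicates of each line 1 and 2. What the number stands for is not stated, so culture, harvest and array handling cannot be told apart in it. Replicate 2 was compared with replicate 1 on the authors' processed values, with the line as a block. The stress genes held more calls here than in any comparison of lines. Each replicate number covers 4 samples and each line 2, so these counts are not directly comparable. Among the unprocessed arrays, whose letters were not matched to numbers, B had a lower median intensity than A in every line. In B and A the medians were 79.94 and 81.64 in TR3 and 80.16 and 82.98 in TR2. They were 71.41 and 76.12 in TR1, and 68.08 and 78.61 in WT. Array B also had more detected probes than array A in every line. The part of these array differences in the replicate contrast was not tested. The members were chosen with earlier results of these data known, so the shares that follow are a description. In limma's fit 9 of 38 probes were called (23.7%, beside 4.86% of all probes). Of these 8 were higher in replicate 2 (21.1%, beside 3.15%) and 1 was lower (2.63%, beside 1.71%). At an unadjusted p under 0.05 there were 11 of 38 (28.9%, beside 18.1%). Of the probes measured, 13 of 38 were higher in replicate 2 in all 4 lines by any amount (34.2%, beside 11.9%) and 3 of 38 were lower in all 4 (7.89%, beside 12.7%).

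STC2, the secreted glycoprotein, differed most. Its processed log2 intensity in replicates 2 and 1 was 8.76 and 8.21 in TR3, 8.92 and 7.64 in TR2, 8.78 and 7.63 in TR1, and 9.01 and 8.09 in WT. Every replicate 2 value exceeded every replicate 1 value, by 0.97 ± 0.09 on average (adjusted p = 1.88e-06). ATF3 had 8.27 and 7.87 in TR3, 8.53 and 7.55 in TR2, 7.79 and 7.46 in TR1, and 8.57 and 7.82 in WT. It was higher in replicate 2 in all 4 lines, by 0.61 ± 0.08 (adjusted p = 0.000191), although the values of the replicate groups overlapped across lines.
ASNS had 9.55 and 8.75 in TR3, 10.07 and 9.79 in TR2, 8.47 and 8.24 in TR1, and 9.82 and 9.02 in WT. It was higher in replicate 2 by 0.53 ± 0.08 (adjusted p = 0.000961), with a difference of 0.8 in TR3 and in WT, 0.28 in TR2 and 0.23 in TR1. STC2, ATF3 and ASNS kept their calls when any 1 line was left out, with the highest adjusted p at 0.000142, 0.00465 and 0.0136.

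The other genes called higher in replicate 2 moved less. EDEM1, which hands misfolded glycoproteins to degradation, had 11.28 and 10.95 in replicates 2 and 1 of TR3, 11.24 and 10.81 in TR2, 10.96 and 10.73 in TR1, and 10.95 and 10.77 in WT. It was higher in replicate 2 in every line, by 0.29 ± 0.06 (adjusted p = 0.00706). XBP1 had 9.09 and 9 in TR3, 9.09 and 8.82 in TR2, 9.83 and 9.53 in TR1, and 9.72 and 9.25 in WT, a difference of 0.28 ± 0.07 (adjusted p = 0.0142).
That difference in XBP1 was smallest in TR3 (0.09) and largest in WT (0.47). CHAC1 had 6.12 and 6.11 in replicates 2 and 1 of TR3, 6.44 and 6.06 in TR2, 6.49 and 6.16 in TR1, and 6.37 and 6.09 in WT, higher by 0.25 ± 0.07 (adjusted p = 0.0355), with a difference in TR3 that rounded to 0. HERPUD1 had 9.75 and 9.63 in TR3, 9.88 and 9.81 in TR2, 9.8 and 9.39 in TR1, and 10.08 and 9.72 in WT, higher by 0.24 ± 0.07 (adjusted p = 0.0409) and least so in TR2. TRIB3 had 9.89 and 9.66 in TR3, 10.14 and 9.71 in TR2, 9.67 and 9.65 in TR1, and 9.89 and 9.62 in WT, higher by 0.24 ± 0.07 (adjusted p = 0.0407) and least so in TR1.
CALR was lower in replicate 2, at -0.29 ± 0.08 (adjusted p = 0.039), with -0.19, -0.1, -0.17 and -0.69 in TR3, TR2, TR1 and WT.
CALR thus fell most in WT, and without WT its difference was -0.16 (adjusted p = 0.221). The smaller calls were not all kept when 1 line was left out, where fewer samples remain. Their directions held, at 0.19 to 0.3 for HERPUD1, 0.25 to 0.33 for EDEM1 and 0.22 to 0.35 for XBP1. CHAC1 stayed at 0.21 to 0.33, TRIB3 at 0.18 to 0.31 and CALR at -0.35 to -0.16. CALR and HERPUD1 lost their calls whichever line was left out (adjusted p 0.052 to 0.221 and 0.0521 to 0.193). EDEM1 lost its call without TR2 (0.0774). XBP1 lost its call without TR2 (0.0721), TR1 (0.0511) or WT (0.0891), CHAC1 without TR2 (0.203), TR1 (0.13) or WT (0.106), and TRIB3 without TR3 (0.124), TR2 (0.255) or WT (0.116). With log2 of the value plus 16, CALR (0.0508) and CHAC1 (0.0631) lost theirs too. The count of 9 became 6 without TR3, 3 without TR2, 6 without TR1 and 4 without WT.

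The difference did not extend to every gene of the programme. ATF4 differed between replicate 2 and replicate 1 by 0.08 ± 0.07 (adjusted p = 0.565), DDIT3 by -0.09 ± 0.06 (0.438) and HSPA5 by -0.04 ± 0.1 (0.893). HSPA5 differed by 0.51 in TR1 and by -0.23, -0.41 and -0.01 in TR3, TR2 and WT, so its lines did not share a direction. The median over the 24 measured ATF4 programme genes was 0.09, with 20 of 24 above 0, and over the 12 ER genes it was 0.03, with 7 of 12 above 0, beside -0.01 and 47.2% over all genes. By line the ATF4 programme median was 0.09 in TR3, 0.09 in TR2, 0.03 in TR1 and 0.19 in WT. The 4 tRNA synthetases all lay above 0, between 0.05 and 0.14, while the 3 transporter genes lay between -0.08 and 0.06, and no probe of these was called.

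**Figure D4:**
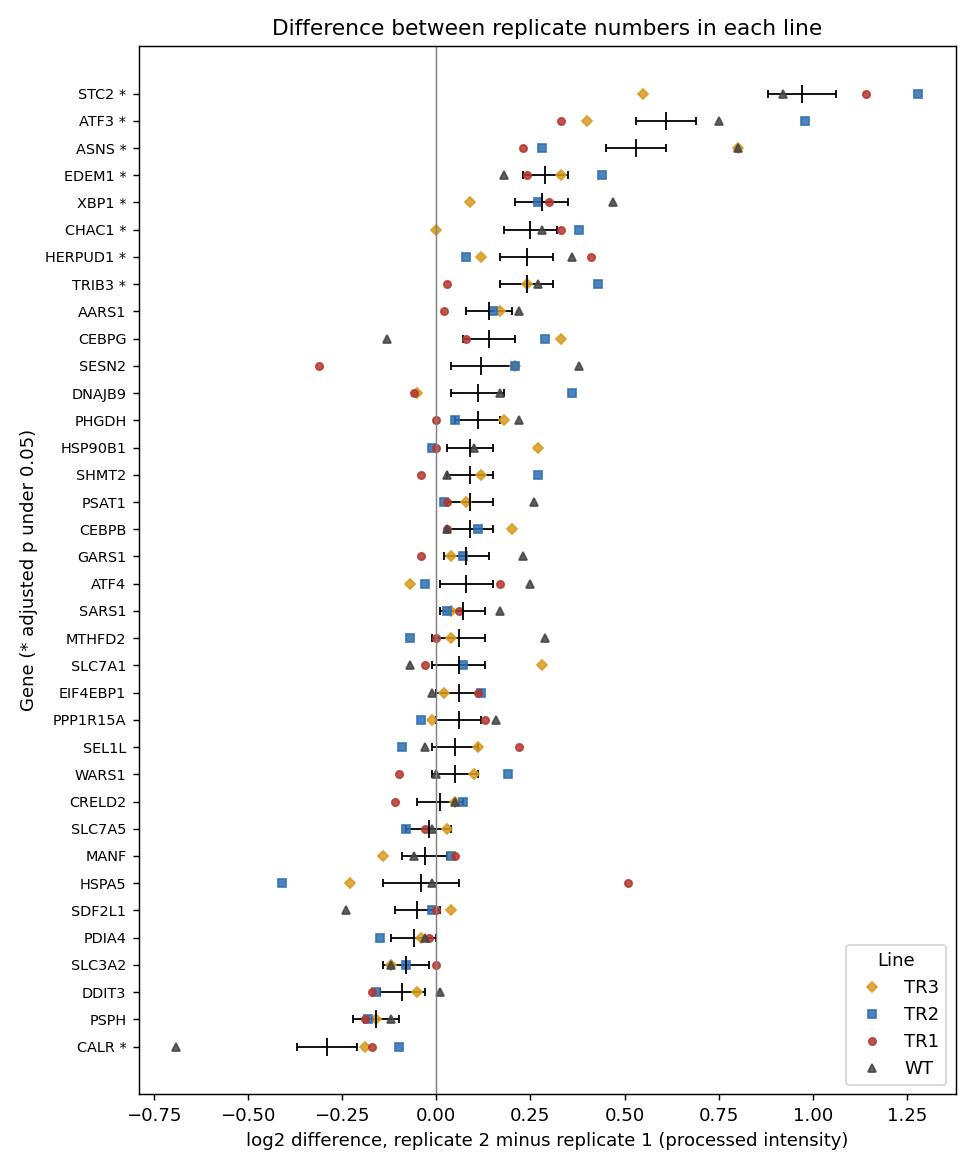
Log2 difference between replicate 2 and replicate 1 for each measured gene's brightest probe, on the authors' processed values; symbols are the 4 lines (TR3, TR2, TR1 and WT) and black bars are the mean with its SE, and an asterisk marks an adjusted p under 0.05. STC2, ATF3 and ASNS lie to the right of 0 in all 4 lines, CALR lies to the left in all 4, and HSPA5 lies on both sides.

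The wider pathway was read from 4 further lists, chosen by function. They comprise the eIF2 kinases, eIF2 subunits and ER stress sensors (18 of 18 genes measured), the other aminoacyl-tRNA synthetases (15 of 16), other amino acid and stress genes regulated by ATF4 (22 of 29), and other ER chaperones and degradation genes (38 of 46). Without the block the tests of lines called 1 of these 91 distinct measured genes, in TR1 against WT, where 2.25% of all probes were called. The gene was SLC38A1, a carrier of neutral amino acids that was lower in TR1 than in WT. It stood at 9.66 and 9.52 in TR1 against 10.25 and 10.05 in WT, a difference of -0.56 ± 0.12 (adjusted p = 0.0399).
DDIT4, an inhibitor of mTORC1 that low oxygen also induces, stood at 11 and 11.93 in TR3, 10.48 and 11.73 in TR2, 9.69 and 10.36 in TR1, and 10.86 and 11.25 in WT. The TR1 pair was lowest and overlapped no other line. Its TR1 difference from WT was -1.03 ± 0.41 (adjusted p = 0.257), and with the block it was -1 ± 0.13 and was called (adjusted p = 3.57e-05).
With the block 3 more of the 91 genes were called in TR1 against WT besides SLC38A1 and DDIT4, beside 8.77% of all probes. EIF2B3, a subunit of the factor that recharges eIF2, was lower (-0.51 ± 0.08, adjusted p = 0.000425), and the ATF4-related factor ATF5 (0.37 ± 0.09, adjusted p = 0.0188) and the amino acid carrier SLC7A6 (0.28 ± 0.08, adjusted p = 0.0392) were higher. Calls with the block were not confined to that pair. They fell beside 3.88% of all probes called in TR2 against WT, 2.25% in TR3 against WT and 3% for the mean of the clones. ATF5 (0.37 ± 0.09, adjusted p = 0.0309) and the eIF2 kinase gene EIF2AK1 (0.31 ± 0.08, adjusted p = 0.0413) were higher in TR2 than in WT, and EIF2B3 was lower in TR3 than in WT (-0.33 ± 0.08, adjusted p = 0.0447). Averaged over the clones and set against WT, ATF5 was higher (0.3 ± 0.08, adjusted p = 0.037), and EIF2B3 (-0.31 ± 0.07, adjusted p = 0.0165) and SLC38A1 (-0.33 ± 0.07, adjusted p = 0.0126) were lower.
Between clones, DDIT4 was higher with the block in TR3 than in TR1 (1.41 ± 0.13, adjusted p = 7.56e-07) and in TR2 than in TR1 (1.05 ± 0.13, adjusted p = 1.14e-05). EIF2B4, another eIF2B subunit gene, and MARS1, the methionyl-tRNA synthetase gene, were lower in TR3 than in TR1 (-0.29 ± 0.09 and -0.32 ± 0.09, adjusted p = 0.0441 and 0.032). In TR2 against TR1, EIF2B3 (0.43), SLC38A1 (0.4) and FARSA (0.28), a phenylalanyl-tRNA synthetase subunit gene, were higher, and the ER folding genes DNAJB11 (-0.29) and ERP44 (-0.31) were lower, with adjusted p from 0.00149 to 0.0494. None of the calls between clones was made without the block, and arrays were not left out in turn for these lists. The blocked fit called 7.4% of all probes in TR3 against TR1 and 11.3% in TR2 against TR1. Whether these lists differ from other genes was not tested.
Between replicate numbers 3 of the 22 other ATF4-regulated genes were called, all higher in replicate 2, beside 3.15% of all probes called higher. DDIT4 was higher by 0.79 ± 0.09 (adjusted p = 3.04e-05), with 0.92, 1.22, 0.65 and 0.39 in TR3, TR2, TR1 and WT. The amino acid carriers SLC1A4 and SLC38A2 were higher by 0.27 ± 0.06 (adjusted p = 0.014) and 0.23 ± 0.06 (adjusted p = 0.0413). In the other 3 lists limma called 0 genes between replicate numbers, against 4 of 18, 1 of 15 and 2 of 38 at an unadjusted p under 0.05, where the share of all probes was 18.1%.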

How the data were processed

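Per the file headers, the authors deposited the linear, unprocessed intensity of every probe on every array together with its detection p-value, and a second table of processed intensities. The submitters' processing notes mention limma, with no version and no step. Scanner software is not given in the sources used here, nor is background subtraction. Probes were named from the platform annotation, which gave 1 symbol for 19715 probes and none for 2469, with symbols updated through RefSeq (GRCh38.p14). In addition 4 probes that matched only an alias shared with another gene were not counted as members. No column was left unmatched (0 columns).

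Intensities were background corrected in R 4.3.3 with limma 3.58.1 by normexp (offset 16, background estimated from the detection p-values), taken to log2 and quantile normalised. Line means were modelled over the 8 arrays together by lmFit and eBayes (4 residual and 5.66 prior degrees of freedom), and p-values were Benjamini-Hochberg adjusted over 13130 probes. Differences are log2 with their standard error (SE). Where neither array of a line detected a probe, its level there is bounded by the lowest detected signal. A gene is represented by its brightest measured probe, and with 2 arrays per line their number limits the precision. Values of every array are given for ATF4, DDIT3, ASNS, XBP1, HSPA5 and each member called in either fit, and of each further list up to 4 genes called in a comparison, in either fit, are named by size of change. The script was tested on simulated data.

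For each of the 6 pairs of lines, the replicate 2 minus replicate 1 differences of the 2 lines correlated over genes (r 0.28 to 0.432, genes not being independent), so the numbers pair the samples. The blocked fit uses the processed values, log2 transformed, because only these carry numbers. The background correction described above was not applied to these values. The fits with and without the block therefore differ in processing as well as in the block. The blocked fit has the same terms as the replicate contrast, with 3 residual and 15.82 prior degrees of freedom. Small p-values from it therefore lean largely on the spread shared over all probes. The processed replicate 1 column ranked probes as array A did in every line (rank correlation 1), and replicate 2 as array B, which was not used as a map. The members and lists were chosen with earlier results of these data known.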

Additional observations from a re-analysis of the deposited data

Results flagged for a closer look

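These are differences between resistant clones under the same contrast, each past the test of the difference itself. In TR2 against TR1, ASNS was higher by 1.7 (log2, adjusted p = 0.0118), EIF4EBP1 was lower at -0.73 (0.00614) and XBP1 was lower at -0.78 (0.0395). In TR3 against TR2, EIF4EBP1 was higher by 0.97 (0.00403). Among all 3 clones limma's F test called EIF4EBP1, with a range of 0.97 between clone means (0.00285), and ASNS, with a range of 1.7 (0.033). All rest on 2 arrays per line. Every call but that of EIF4EBP1 in the F test was lost when some single array was left out, as given above. In TR2 against TR1 leaving out 1 array gave 1.56 to 1.85 for ASNS and -0.93 to -0.62 for XBP1. EIF4EBP1 was not detected in TR2, so its values are differences of measured means against a level that is only a bound, and on the authors' values with the replicate block they were -0.37 for TR2 against TR1 and 0.49 for TR3 against TR2.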

How the results depend on the processing

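Counts are of the 38 member probes called. With the replicate block on the processed values they were 1 for TR3 against WT, 4 for TR2 against WT, 4 for TR1 against WT, 1 for the mean of the clones against WT, 2 for TR3 against TR2, 5 for TR3 against TR1, 7 for TR2 against TR1 and 7 in the F test. TR1 against WT gave 1 without background correction, with an offset of 50, on the authors' values and with a trended robust prior. For ASNS, ATF3, HERPUD1 and SLC3A2 in that comparison, the authors' values and omitted background correction gave the same differences and adjusted p. These settings are therefore not separate checks. TR2 against WT gave 0 without background correction, with an offset of 50, on the authors' values and among probes detected on all 8 arrays, where EIF4EBP1 is left out by construction. That filter also gave 0 for TR3 against TR2 and 1 in the F test. With no filter on dim probes TR2 against TR1 and the F test gave 1 each. Without the line as a block the replicate contrast gave 0 (9 with it). Leaving out 1 array, or 1 line in the replicate contrast, gave 0 to 0 for TR3 against WT, 0 to 1 for TR2 against WT, 0 to 1 for TR1 against WT, 0 to 0 for the mean of the clones, 0 to 1 for TR3 against TR2, 0 to 0 for TR3 against TR1, 1 to 3 for TR2 against TR1, 1 to 3 in the F test and 3 to 6 between replicate numbers. ATF3 in TR2 against TR1 reversed to -0.1 without TR2 array B, and leaving out 1 array gave -0.1 to 1.07. Apart from the stated filter, the cause of these shifts was not tested. Of the values of single probes under the alternatives, 533 kept direction and side of the threshold, 37 gained a call, 56 lost it and 1 reversed, and the medians of both branches moved by less than the spread between arrays. Files name no slide or chip, so a slide block was not run. Probes near background, EIF4EBP1, CHAC1 and SESN2 among them, limit what can be read from their levels.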
